A study of Mus musculus with 8 samples.

Results

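The genes described here are 10 imprinted regulators of growth, namely H19, Igf2, Igf2r, Meg3, Dlk1, Peg3, Cdkn1c, Plagl1, Mest and Grb10. They were taken by symbol from a table of 31228 mouse genes, and each matched 1 row. RNA came from C57BL/6 mice in 4 untreated groups. Extrahepatic bile duct epithelium and pancreatic duct epithelium were each 1 library, made from dissected, collagenase-digested duct that went straight into Trizol and called fresh duct below. Bile duct organoids and pancreatic duct organoids, which are hollow epithelial cultures in Matrigel, had 3 libraries each and were taken at passage 3 to 4. All organoids grew in medium with EGF, R-Spondin-1, Noggin, FGF10 and nicotinamide, started with Wnt3A and the kinase inhibitor Y27632, both later removed. The labels give no age or sex and do not say whether cultures or ducts came from separate or pooled animals, so p-values measure a spread between libraries that may be technical. The study asked how alike the ducts, and the organoids grown from them, are in expression.

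An imprinted gene is transcribed mainly from the copy inherited from one parent, under the control of DNA methylation marks laid down in the germline that differ between the parental copies. Many paternally expressed genes, Igf2 among them, promote fetal growth, and several maternally expressed ones, such as Igf2r, Cdkn1c, Grb10 and H19, restrain it. Most are transcribed strongly before birth and decline in adult tissue, with some kept in stromal, endocrine or progenitor cells. RNA totals such as these do not tell the parental copies apart.

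Levels are FPKM, read numbers scaled to exon length and library size, so they can be compared between genes. The libraries held 12876470 to 20828217 reads as implied by the values. The libraries labelled epithelium also carried RNA of other cells. The summed FPKM of 11 fibroblast markers was 1431 in fresh bile duct and 1518 in fresh pancreatic duct, and 0.720 to 3.77 in the organoids, where Lum and Mfap5 were at 0 in all 6. Markers of acinar cells summed to 14810 and 29992 against 2.30 to 9.13, those of smooth muscle and pericytes to 2138 and 3610 against 0.351 to 1.68, and those of endothelium to 637 and 1058 against 1.30 to 2.07. Duct epithelium markers went the other way, with 2660 and 658 FPKM in the epithelia and 5853 to 11726 in the organoids. Among the organoids, bile duct 2, bile duct 3 and pancreatic duct 3 stood apart. They held 684 to 1279 FPKM of Rps2, a ribosomal protein gene, against 44.1 to 60.5 in the other 3, and reads of 130 to 148 small nuclear RNA genes against 67 to 87. Xist, the X-inactivation RNA, was at 81.3 to 89.1 FPKM against 19.7 to 23.6, and 4 Y-linked genes had 9 to 14 reads against 0. This difference was found after the data were examined, in genes outside the 10.

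The 4 promoter sequences shown here set a gene that rose beside 3 that fell. RefSeq start sites on GRCm38.p6 gave 15 upstream windows of 250 bases for 8 of the 10 genes; H19 and Cdkn1c had none. CG pairs, the sites of DNA methylation, are in capitals, and each sequence runs 5′ to 3′ towards the start site on the gene's strand.
Igf2r, chr17:12769707-12769956, minus strand: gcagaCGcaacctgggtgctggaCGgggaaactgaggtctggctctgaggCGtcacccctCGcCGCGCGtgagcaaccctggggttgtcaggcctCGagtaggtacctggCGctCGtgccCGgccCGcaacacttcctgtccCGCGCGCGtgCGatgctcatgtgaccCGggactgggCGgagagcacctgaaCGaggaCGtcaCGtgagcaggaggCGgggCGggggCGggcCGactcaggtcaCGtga
Grb10, chr11:12037421-12037670, minus strand: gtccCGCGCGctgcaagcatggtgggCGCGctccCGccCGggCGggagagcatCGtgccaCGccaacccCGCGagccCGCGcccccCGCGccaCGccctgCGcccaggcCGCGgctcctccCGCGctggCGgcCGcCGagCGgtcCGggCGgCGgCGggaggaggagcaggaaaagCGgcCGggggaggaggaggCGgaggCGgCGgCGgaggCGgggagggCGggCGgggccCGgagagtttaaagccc
Igf2, chr7:142658805-142659054, minus strand: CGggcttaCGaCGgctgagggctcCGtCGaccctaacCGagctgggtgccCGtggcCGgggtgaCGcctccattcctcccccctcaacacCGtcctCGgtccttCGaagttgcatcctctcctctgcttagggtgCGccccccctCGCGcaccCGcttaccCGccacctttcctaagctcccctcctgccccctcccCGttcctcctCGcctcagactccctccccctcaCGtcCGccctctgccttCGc
Peg3, chr7:6730420-6730669, minus strand: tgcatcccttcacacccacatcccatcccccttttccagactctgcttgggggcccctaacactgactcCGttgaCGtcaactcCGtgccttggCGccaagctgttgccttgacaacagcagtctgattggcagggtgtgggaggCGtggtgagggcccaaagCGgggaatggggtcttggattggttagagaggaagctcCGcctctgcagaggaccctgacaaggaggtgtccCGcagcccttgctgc
The Grb10 window shown, the first of 2, held 40 CG pairs, more than 98.7% of the 32851 windows in the table, whose median was 6, and the second held 8. Igf2r had 27 CG pairs, the third of 4 Igf2 windows had 22 and Peg3 had 8. The 2 most CG-rich of the 15 windows belonged to a gene that rose and to a gene that fell between epithelium and organoid. Both strands were searched for 3 sets of letters. TATAAA, the TATA box, was in 1 of the 15 windows (Meg3) and in 12.4% of all windows. CCATNTT, the core that YY1 binds, was in 2, the second window of Igf2 and the second of Grb10, neither shown, and in 12.4% of all. GGGGCCCC, a palindrome bound by PLAGL1, was in 1 (Peg3) and in 0.889% of all. A match describes letters in these windows only.

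The comparison of organoids with epithelia asked how the imprinted growth genes differ between duct tissue and culture. It used limma on log2(scaled FPKM + 1) with organ as a covariate and Benjamini-Hochberg adjustment at 0.05, and its residual spread comes mostly from the organoids, because each epithelium is 1 library. Of the 10 genes, 8 passed the filter of 1 FPKM in at least 2 libraries. Igf2r rose, H19, Igf2, Peg3, Cdkn1c, Mest and Grb10 fell, and Plagl1 did not pass. Among all 14919 genes tested, 57.6% passed, 27.6% upwards and 30.0% downwards. Over the same genes, all 6 organoids lay below both epithelia in 31.9% and above both in 30.9%. H19, Igf2 and Grb10 reached 1 FPKM only in the epithelia and so had to differ once tested, Mest reached it in 1 organoid, and the count says little beyond the background. Meg3 and Dlk1 were under the filter in all libraries. In bulk RNA, fewer cells of a type and less RNA per cell cannot be told apart.

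**Figure D1:**
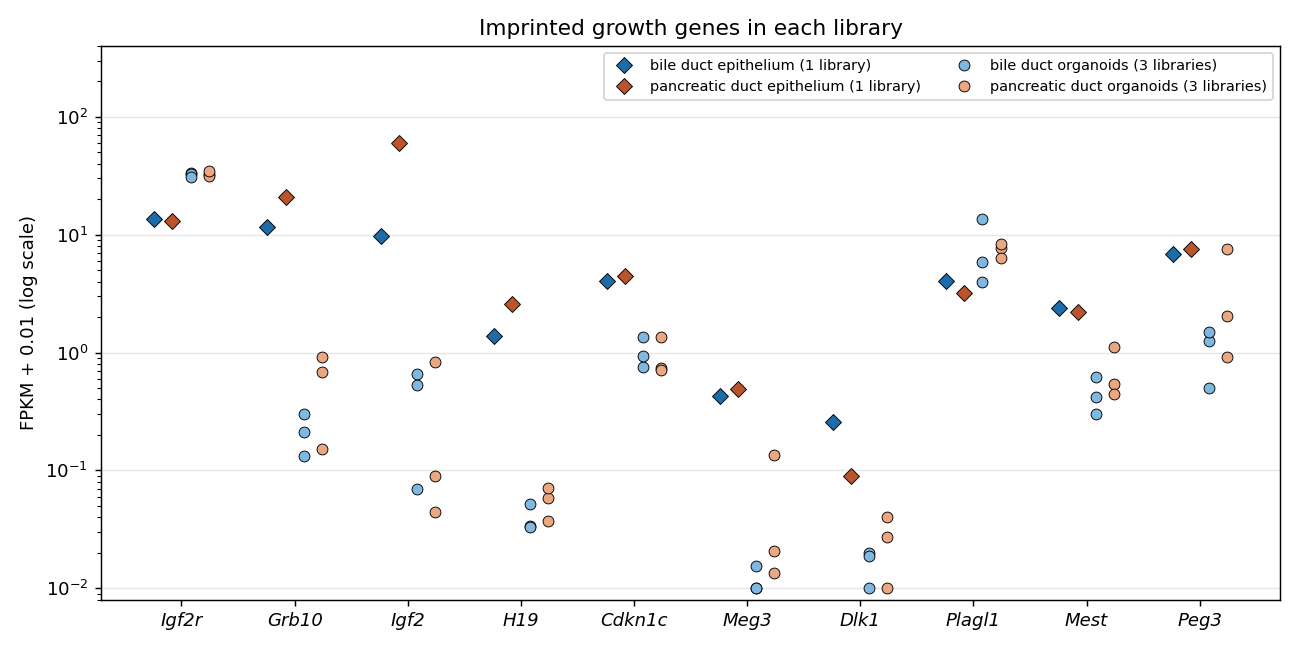
FPKM plus 0.01 on a log axis for the 10 genes in each of the 8 libraries; diamonds are single epithelium libraries and circles are organoid libraries. All 6 organoids lie above both epithelia only for Igf2r, and for Plagl1 and Peg3 an organoid library reaches the epithelial range.

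Igf2 encodes insulin-like growth factor 2, a secreted growth factor read from the paternal copy, and lies on chromosome 7 (GRCm38, 142650766 to 142666816, minus strand). It stood at 9.76 FPKM in fresh bile duct and 60.0 in fresh pancreatic duct. Bile duct organoids 1, 2 and 3 had 0.0589, 0.647 and 0.522 FPKM, and pancreatic duct organoids 1, 2 and 3 had 0.0340, 0.0795 and 0.814. All 6 organoids were thus far below both epithelia, the organoids of the 2 organs overlapped, and the organoids themselves fell into a low and a higher trio. The fitted change from epithelium to organoid was -4.50 (SE 0.56, adjusted p = 0.000475 by limma), larger in pancreatic duct (-5.84, SD 0.42, n = 3 organoids) than in bile duct (-3.17, SD 0.32, n = 3), a difference that was not tested. Adding 1 before the logarithm understates the change of a gene at such low organoid levels, and with 0.1 added in its place the fitted change was -6.42. On reads per implied library size, the ratio of epithelium to pooled organoids was 23.2 in bile duct (95% interval 19.3 to 28.1) and 171 in pancreatic duct (141 to 209), or 1029 (575 to 2063) without pancreatic duct organoid 3. These intervals, like those of all read ratios below, cover counting error only. The higher trio was the 3 libraries that stand apart, at 0.522 to 0.814 FPKM against 0.0340 to 0.0795. In the same libraries the fibroblast marker sum was 2.66 to 3.77 FPKM against 0.720 to 1.28. Of its 11 genes, the 3 collagen genes Col1a1, Col1a2 and Col3a1 were higher in all 3 libraries, with Col1a1 at 0.729 to 0.944 against 0.0855 to 0.173, while the other 8 did not separate, Lum, Mfap5 and Dpt being at 0 in all 3. The smooth muscle and pericyte sum overlapped (0.351 to 0.705 against 0.595 to 1.68), the endocrine sum was lower (0.0086 to 0.055 against 0.078 to 1.20) and the endothelium sum was higher (1.50 to 2.07 against 1.30 to 1.44). The duct epithelium sum was lower (5853 to 7733 against 10548 to 11726), and the acinar (5.61 to 9.13 against 2.30 to 4.65) and hepatocyte sums (37.2 to 146 against 8.66 to 15.1) were higher. Most of the endothelium sum was Egfl7 (1.20 to 1.84 against 1.02 to 1.14), of the acinar sum Cela1 and of the hepatocyte sum Ttr (36.7 to 141 against 5.88 to 13.7). Gene by gene, 2 of 9 endothelium markers were higher and 1 lower, and 2 of 8 acinar markers were higher. For hepatocyte markers 1 of 6 was higher and 1 lower, and 1 of 8 endocrine markers was lower. The rest overlapped. Mki67, a proliferation marker, was 56.8 to 66.8 against 18.5 to 31.2. Their part in the Igf2 values was not tested. Without these 3 libraries the change was -4.92 (adjusted p = 0.00676 by limma).

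H19, a maternally expressed non-coding RNA downstream of Igf2 that shares its enhancers (chromosome 7, 142575529 to 142578143, minus strand), had 1.38 FPKM in fresh bile duct and 2.59 in fresh pancreatic duct. In bile duct organoids 1, 2 and 3 it was at 0.0237, 0.0422 and 0.0229 FPKM and in pancreatic duct organoids at 0.0274, 0.0479 and 0.0607. These organoid values rest on 1 to 3 reads a library, against 42 and 95 reads in the epithelia, and every organoid lay below both epithelia. H19 fell by 1.64 on the log2 scale (SE 0.14, adjusted p = 6.7e-05 by limma). With a pseudocount of 0.1 the change was -4.09. The ratio of epithelium to pooled organoids on reads was 45.8 in bile duct (95% interval 16.6 to 176) and 55.1 in pancreatic duct (24.4 to 154). H19 did not follow the split of Igf2 among organoids, with 0.0229 to 0.0607 FPKM in the libraries that stand apart and 0.0237 to 0.0479 in the others.

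**Figure D2:**
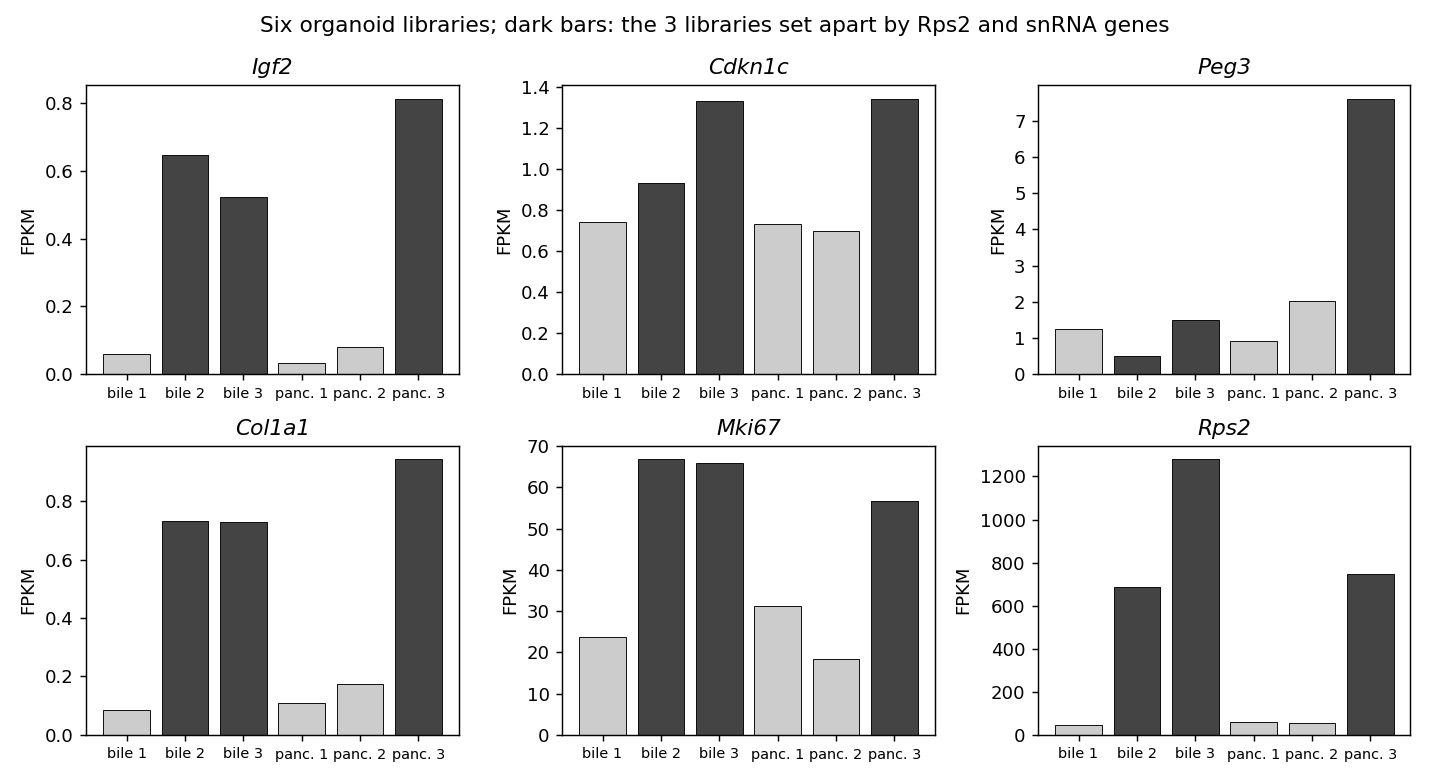
FPKM of Igf2, Cdkn1c, Peg3, Col1a1, Mki67 and Rps2 in the 6 organoid libraries, with the 3 libraries that stand apart in dark bars. Igf2, Cdkn1c, Col1a1, Mki67 and Rps2 are higher in every dark bar than in every light one, while Peg3 is high in pancreatic duct organoid 3 alone.

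Igf2r encodes the receptor that carries IGF2 to the lysosome for breakdown and also sorts mannose 6-phosphate-tagged enzymes (chromosome 17, 12682406 to 12769664, minus strand). It had 13.7 FPKM in fresh bile duct and 13.1 in fresh pancreatic duct. Bile duct organoids 1, 2 and 3 had 33.5, 32.5 and 31.0 FPKM and pancreatic duct organoids 32.8, 31.4 and 34.6. The 6 organoids lay close together, overlapped between organs and were all above both epithelia. On reads per library size, without the scaling used in the fit, Igf2r rose 2.36-fold in bile duct (95% interval 2.24 to 2.48) and 2.52-fold in pancreatic duct (2.40 to 2.64). On the log2(scaled FPKM + 1) scale the rises were 0.92 and 0.98, just under 2-fold. Its fitted change was 0.95 (SE 0.088, adjusted p = 0.000102 by limma). Without the 3 libraries that stand apart the change was 1.00 (adjusted p = 0.00608 by limma). Airn, the non-coding RNA that silences the paternal Igf2r copy, overlaps it by 28354 bases on the other strand, and its reads could be mixed with those of Igf2r because strand use in counting is not given in the sources used here. Airn was at 2.19 and 3.11 FPKM in the epithelia and at 0.454 to 1.58 in the organoids.

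Grb10, an adaptor that binds the insulin and IGF1 receptors and damps their signal (chromosome 11, 11930508 to 12038683, minus strand), stood at 11.6 FPKM in fresh bile duct and 20.9 in fresh pancreatic duct. Bile duct organoids had 0.124, 0.204 and 0.293 FPKM and pancreatic duct organoids 0.143, 0.675 and 0.909. No organoid came near the epithelia, and the organoid groups overlapped. Grb10 fell by 3.83 (SE 0.21, adjusted p = 6.4e-06 by limma). Its ratio of epithelium to organoids on reads was 56.0 in bile duct (95% interval 46.0 to 68.9) and 34.0 in pancreatic duct (30.2 to 38.4). Leaving out each organoid in turn gave 47.2 to 70.1 in bile duct and 26.0 to 48.9 in pancreatic duct. These ranges reach beyond the intervals, which cover counting error only. The ligand Igf2 and the adaptor Grb10 fell while the clearance receptor rose. Igf2r made up 25.2% and 11.4% of the summed FPKM of the 10 genes in fresh bile duct and fresh pancreatic duct, and 64.0% to 79.4% in the organoids. Igf2 made up 17.9% and 52.4% in the epithelia and 0.0791% to 1.58% in the organoids.

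Cdkn1c encodes p57, a cyclin-dependent kinase inhibitor of the Cip/Kip family that holds cells out of cycle (chromosome 7, 143458339 to 143461050, minus strand). It had 4.00 FPKM in fresh bile duct and 4.44 in fresh pancreatic duct. Bile duct organoids had 0.743, 0.932 and 1.33 FPKM and pancreatic duct organoids 0.732, 0.697 and 1.34. Every organoid was below both epithelia, and the 3 highest organoids were the libraries that stand apart, at 0.932 to 1.34 FPKM against 0.697 to 0.743. Cdkn1c fell by 1.64 (SE 0.16, adjusted p = 0.000145 by limma), and its change was -1.76 without those 3 libraries (adjusted p = 0.00284). Among 6 other inhibitors of the Cip/Kip and INK4 families, 3 rose, 2 fell and 1 did not pass, beside 27.6% that rose and 30.0% that fell of all genes tested. Cdkn2a, which encodes p16 and p19ARF, rose by 4.69 (SE 0.25, adjusted p = 6.3e-06), Cdkn2b, p15, by 2.84 (SE 0.62, adjusted p = 0.00652), and Cdkn1a, p21, by 0.73 (SE 0.25, adjusted p = 0.0387, all by limma). Cdkn2a was under 1 FPKM in both epithelia (0.0663 and 0.221, against 19.5 to 50.3 in the organoids), so it had to rise once tested. Cdkn1b, p27, fell by 0.62 (SE 0.17, adjusted p = 0.0163 by limma). Without pancreatic duct epithelium the calls of Cdkn1a (0.48, adjusted p = 0.337), Cdkn1b (-0.43, adjusted p = 0.198) and Cdkn2b (1.75, adjusted p = 0.106) were lost. That of Cdkn1a was also lost without bile duct epithelium (adjusted p = 0.0844) and without 4 of the 6 organoids in turn (adjusted p = 0.0514 to 0.0721), with median-of-ratios scaling (adjusted p = 0.05002) and with no filter (adjusted p = 0.0584), and that of Cdkn1b without the 3 libraries that stand apart (adjusted p = 0.120). With a pseudocount of 0.1, 3 of the 6 rose and 1 fell, with FPKM as deposited 4 rose and none fell, and without pancreatic duct epithelium 1 rose and none fell. The proliferation marker sum was 63.8 and 42.3 FPKM in the epithelia and 193 to 414 in the organoids, and its part in these changes was not tested.

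Peg3, a paternally expressed zinc finger protein tied to growth and maternal care (chromosome 7, 6703892 to 6730431, minus strand), had 6.80 FPKM in fresh bile duct and 7.61 in fresh pancreatic duct. Bile duct organoids had 1.26, 0.488 and 1.50 FPKM and pancreatic duct organoids 0.911, 2.03 and 7.61. Pancreatic duct organoid 3 was as high as its epithelium on the deposited scale and, at 6.96 scaled FPKM, below the 7.80 and 8.93 of the epithelia after scaling, and the other 5 were well below both epithelia. Peg3 fell by 1.82 (SE 0.52, adjusted p = 0.0207 by limma). The call did not hold without the bile duct epithelium (-1.51, adjusted p = 0.173) or without the pancreatic duct epithelium (-2.18, adjusted p = 0.0759). Without pancreatic duct organoid 3 the change was -2.10 (adjusted p = 0.00119). The gene next to it, the maternally expressed zinc finger gene Zim1, 7442 bases away, was at 2.95 and 2.76 FPKM in the epithelia and at 0 to 0.0594 in the organoids. Zim1 reached 1 FPKM only in the epithelia and so had to fall once tested, here by 2.10 (SE 0.077, adjusted p = 9.4e-07 by limma).

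Plagl1, a paternally expressed zinc finger factor that acts on other imprinted genes (chromosome 10, 13060504 to 13131694, plus strand), had 4.06 FPKM in fresh bile duct and 3.19 in fresh pancreatic duct. Bile duct organoids had 13.5, 5.91 and 3.98 FPKM and pancreatic duct organoids 7.78, 6.27 and 8.26. Pancreatic duct organoids were above both epithelia, whereas bile duct organoid 3 lay level with bile duct epithelium and bile duct organoid 1 was the highest of all. The fitted difference was 0.59 (SE 0.39, adjusted p = 0.226 by limma). Without the 3 libraries that stand apart it was 0.98 (adjusted p = 0.0266), so the call depended on them.

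Mest, a paternally expressed gene for an alpha/beta-hydrolase fold protein (chromosome 6, 30723547 to 30748465, plus strand), had 2.36 FPKM in fresh bile duct and 2.21 in fresh pancreatic duct. Bile duct organoids had 0.612, 0.292 and 0.413 FPKM and pancreatic duct organoids 0.527, 1.10 and 0.438. All 6 were below both epithelia and the organ groups overlapped. Mest fell by 1.26 (SE 0.18, adjusted p = 0.000856 by limma), and its change was -2.20 with a pseudocount of 0.1. On reads the ratio of epithelium to organoids was 5.46 in bile duct (95% interval 4.14 to 7.21) and 3.26 in pancreatic duct (2.56 to 4.16). In contrast to Igf2 and Cdkn1c, the libraries that stand apart were the lower ones, at 0.292 to 0.438 FPKM against 0.527 to 1.10. Copg2 overlaps Mest by 912 bases on the other strand. Its mean was 14.6 FPKM in organoids of bile duct and 15.2 in those of pancreatic duct, against 6.96 and 7.05 in the epithelia.

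Dlk1 and Meg3 are neighbours on chromosome 12, a paternally expressed membrane inhibitor of differentiation (109452823 to 109463336, plus strand) and a maternally expressed non-coding RNA (109541001 to 109571726, plus strand). Meg3 was at 0.416 and 0.483 FPKM in fresh bile duct and fresh pancreatic duct, from 97 and 135 reads. It was at 0, 0.00553 and 0 in bile duct organoids and at 0.00359, 0.126 and 0.0106 in pancreatic duct organoids, where pancreatic duct organoid 2 held 40 reads and the other 5 held 0 to 4. All organoids lay below both epithelia. The epithelium to organoid ratio on reads was 212 in bile duct (95% interval 57.0 to 1773) and 10.4 in pancreatic duct (7.41 to 15.0). Without pancreatic duct organoid 2 the pancreatic duct ratio was 63.3 (26.5 to 198). Dlk1 was at 0.247 and 0.0801 FPKM in the epithelia, from 18 and 7 reads. It was at 0.00992, 0.00884 and 0 in bile duct organoids and at 0, 0.0301 and 0.0170 in pancreatic duct organoids, all from 0 to 3 reads. Again each organoid lay below both epithelia, though at this depth values of single reads cannot be ordered. The ratio for Dlk1 was 39.3 in bile duct (95% interval 9.40 to 349) and 4.88 in pancreatic duct (1.33 to 19.5), or 8.21 (1.56 to 80.9) without pancreatic duct organoid 2. In a fit with no filter on low values, Meg3 fell by 0.57 (adjusted p = 0.000132) and Dlk1 by 0.23 (adjusted p = 0.0115, both by limma), on a scale that compresses such low levels.

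**Figure D3:**
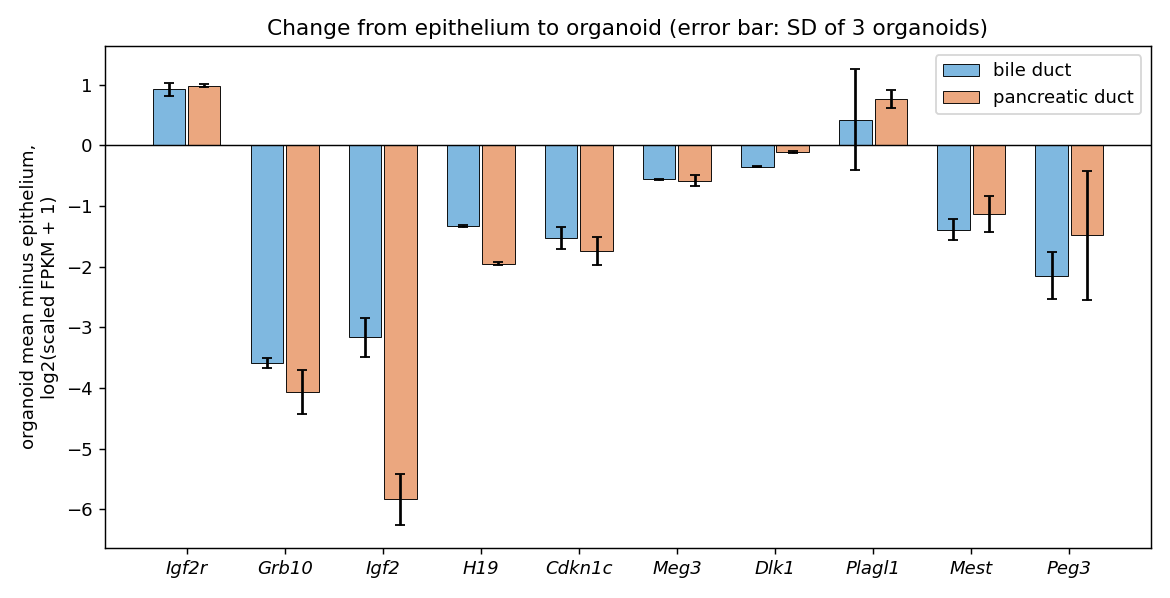
Organoid mean minus epithelium in log2(scaled FPKM + 1) for each gene in bile duct and pancreatic duct; error bars are the SD of 3 organoids and leave out the error of the single epithelium library. Igf2r and Plagl1 have bars above 0, that of Plagl1 in bile duct with an SD (0.84) longer than the bar (0.42), and Igf2 has the longest bar, -5.84 in pancreatic duct.

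Taken organ by organ, with no test because each epithelium is 1 library, H19, Igf2, Peg3, Cdkn1c, Mest and Grb10 lay at least 2-fold lower with all 3 organoids on one side, both in bile duct and in pancreatic duct. Of all genes in the filter, 37.6% of 15727 did so in either direction in bile duct, 12.3% upwards and 25.3% downwards, and 39.0% of 15515 in pancreatic duct, 14.7% upwards and 24.3% downwards. Igf2r, at 0.92 in bile duct and 0.98 in pancreatic duct, stopped just short of 2-fold on this scale. With FPKM as deposited it passed 2-fold in both (1.18 and 1.26), Plagl1 reached 1.00 in pancreatic duct, and Mest in pancreatic duct, at -0.95, no longer did. On pooled reads Peg3 was 1.97-fold lower in pancreatic duct, just short of 2-fold. Without the libraries that stand apart, bile duct gave 1.04 for Igf2r and 1.35 for Plagl1, each from bile duct organoid 1 alone, and without that organoid Plagl1 was -0.039 against 0.42 with all 3. The epithelial order by level was Igf2r, Grb10, Igf2, Peg3 in bile duct and Igf2, Grb10, Igf2r, Peg3 in pancreatic duct. In the organoids Igf2r was above every other gene in every library. Plagl1 came next by its lowest and highest values, and its range met that of Peg3. The ranges of Peg3, Cdkn1c, Mest, Grb10 and Igf2 ran into one another, and those of H19, Meg3 and Dlk1 overlapped, with H19 and Meg3 reaching the lower end of Igf2.

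Between the epithelia, Igf2 was the only one of the 8 genes in the filter at least 2-fold apart on the log2(scaled FPKM + 1) scale, a description of 1 library against 1. It was 6.15-fold higher in pancreatic duct on reads (95% interval 5.68 to 6.65), and on the log2 scale bile duct minus pancreatic duct was -2.55. Of 15092 genes, 13.7% were 2-fold apart, 9.08% higher and 4.64% lower in bile duct. Grb10 was 1.79-fold higher in pancreatic duct (95% interval 1.68 to 1.91) and H19 1.88-fold higher (1.30 to 2.78). Dlk1 was 3.09-fold higher in bile duct (95% interval 1.23 to 8.74) on 18 and 7 reads and was under the filter. All these intervals cover counting error only and hold no spread between ducts or animals. Endocrine markers summed to 89.3 FPKM in fresh bile duct and 202 in fresh pancreatic duct. Of 7 endocrine markers in the filter, 4 were at least 2-fold lower in bile duct and 0 were 2-fold higher. Among them Ins2, an insulin gene 11840 bases from Igf2, stood at 16.9 and 77.6 FPKM and Ins1, on another chromosome, at 7.03 and 44.6. Sst (29.9 and 24.0) and Chga (4.51 and 3.05) were higher in bile duct, and Ppy was at 27.0 and 32.7. Ins1 was at 0 in all 6 organoids. The part of these cells in the Igf2 difference was not tested.

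Bile duct and pancreatic duct organoids were compared with limma over the 6 organoid libraries. None of 12106 genes passed (0%), and 305 had an unadjusted p below 0.05. Only Igf2r, Peg3 and Plagl1 reached 1 FPKM in at least 3 organoids. The bile duct minus pancreatic duct difference was -0.022 for Igf2r (SE 0.10), -0.85 for Peg3 (SE 0.55, unadjusted p = 0.169) and -0.077 for Plagl1 (SE 0.41), each with an adjusted p of 1.00. The Peg3 difference was -0.26 without pancreatic duct organoid 3 and -1.32 without pancreatic duct organoid 1. With no filter the other 7 had adjusted p-values of 0.984 to 0.988 by limma. These are not a showing that the organoids are alike, since 42.1% of 2-fold and 81.0% of 4-fold changes were recovered in data simulated for this test. The simulated spread was capped and independent between genes, so recovery in the real data may be lower. The 2 organoid groups did not overlap in 6.75% of the genes tested and overlapped in all of Igf2r, Peg3 and Plagl1.

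Other imprinted genes came from 2 lists that group genes by the parental copy reported as active in at least some tissue, several of them in placenta only. The counts of both lists stand beside 27.6% that rose and 30.0% that fell of all 14919 genes tested. Of 19 paternally expressed genes, 18 were in the table and 10 were tested, of which none rose, 7 fell and 3 did not pass. Ndn, Sgce and Nap1l5, 3 of the 7, stayed under 1 FPKM in every organoid and so had to fall once tested. The median difference was -1.41 over the 10 and -0.42 over 18 with no filter, -0.64 over 7 without bile duct epithelium and -0.35 over 7 without pancreatic duct epithelium, beside -0.0031 over all 14919 genes tested. The most abundant by mean over all 8 libraries was Peg13, a non-coding RNA, which had 21.5 and 25.4 FPKM in the epithelia and 3.34 to 7.62 in the organoids, where Nnat (2.91 to 18.1) and Mcts2 (5.20 to 9.78) reached higher. Peg13 fell by 2.32 (SE 0.30, adjusted p = 0.000553 by limma). Nnat, a membrane proteolipid, gave 1.42 (adjusted p = 0.0599), Inpp5f, a phosphoinositide phosphatase, -0.37 (adjusted p = 0.211) and Mcts2, a retrogene, -0.12 (adjusted p = 0.639). The other 6 that fell, named after their values were seen, were Ndn (-3.25), Sgce (-2.89), Nap1l5 (-2.79), Zrsr1 (-1.82), Airn (-1.01) and Snrpn (-0.48). Nnat passed with FPKM as deposited (adjusted p = 0.0346), with a pseudocount of 0.1 (adjusted p = 0.0429), without pancreatic duct organoid 1 (adjusted p = 0.0313) and without pancreatic duct organoid 2 (adjusted p = 0.00687). Without bile duct epithelium 3 of 7 tested genes fell, and without pancreatic duct epithelium 2 of 7, where Airn gave -0.81 (adjusted p = 0.133). Snrpn was lost without either epithelium, without 3 single organoids in turn (bile duct 2, pancreatic duct 1 and pancreatic duct 3), without the 3 libraries that stand apart (adjusted p = 0.162), with FPKM as deposited (adjusted p = 0.110) and with no filter (adjusted p = 0.0733).

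Of 23 maternally expressed genes, 21 were in the table and 14 were tested, of which 4 rose, 4 fell and 6 did not pass, with a median of 0.30. All 4 that fell, Dcn, Zim1, Slc22a3 and Ppp1r9a, stayed under 1 FPKM in every organoid and so had to fall once tested. They were not tested when an epithelium was left out, which gave 6 higher and 0 lower of 10 without bile duct epithelium and 4 higher and 0 lower without pancreatic duct epithelium. With FPKM as deposited 6 rose and 4 fell, and with no filter 4 rose and 11 fell of 21, with a median of -0.088. Dcn, which encodes the matrix proteoglycan decorin and is also a fibroblast marker, had 378 and 314 FPKM in the epithelia and fell by 8.56 (SE 0.12, adjusted p = 5.7e-08 by limma). Nap1l4, a histone chaperone gene, rose by 0.53 (SE 0.11, adjusted p = 0.00439 by limma), a call lost without bile duct epithelium (0.39, adjusted p = 0.1002). Kcnq1, a potassium channel gene, gave 1.09 (adjusted p = 0.0900; 0.0172 without bile duct organoid 1, 0.0160 without bile duct epithelium and 0.0482 with FPKM as deposited) and Cd81, a tetraspanin gene, 0.035 (adjusted p = 0.919). Named after their values were seen, Phlda2, a placental growth restrainer, rose by 1.95, H13 by 1.33 and Tssc4 by 0.90, and Zim1, Slc22a3 (-1.97) and Ppp1r9a (-1.61) were the others that fell. The lower counts in these lists stood beside falls of 11 of 11 fibroblast, 8 of 8 smooth muscle and 9 of 9 endothelium markers, whose part was not tested. Of these markers 11, 7 and 8 stayed under 1 FPKM in every organoid and so had to fall once tested, and only Rgs5 and Egfl7 reached it in an organoid.

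The IGF pathway around Igf2 and Igf2r was described with 22 further genes, of which 17 were tested, 3 rose, 8 fell and 6 did not pass. Over all genes tested, 27.6% rose and 30.0% fell. The median of the 17 was -1.32, and -0.70 without the 3 libraries that stand apart. Igf1, Igfbp2, Igfbp6 and Pappa, 4 of the 8 that fell, stayed under 1 FPKM in every organoid and so had to fall once tested. Without bile duct epithelium 2 rose and 3 fell of 13 (median -0.56), and without pancreatic duct epithelium 2 rose and 3 fell of 13 (median -0.094). Its 4 most abundant genes by mean over all 8 libraries were Igfbp7, Igfbp4 and Igfbp3, which encode binding proteins for IGFs, and Grb2, an adaptor. None of them passed, at -1.32 (adjusted p = 0.296), -2.23 (adjusted p = 0.101), -0.15 (adjusted p = 0.839) and 0.22 (adjusted p = 0.179, all by limma), though Grb2 passed with FPKM as deposited (0.50, adjusted p = 0.00617). In the epithelia Igfbp5 (95.5 and 151 FPKM), Igfbp6 (75.1 and 55.5) and Htra1 (32.5 and 75.1), a secreted protease, were above Grb2 (30.0 and 29.3). These 3, named after their values were seen, fell, with changes of -5.90 (adjusted p = 0.000611), -5.94 (adjusted p = 8.3e-08) and -4.92 (adjusted p = 6.1e-05, all by limma). Also named after its values were seen, the ligand Igf1 fell by 4.15 (SE 0.094, adjusted p = 1.2e-07), from 13.7 and 15.6 FPKM in the epithelia to between 0 and 0.0274 in the organoids. Its receptor Igf1r rose by 0.84 (SE 0.17, adjusted p = 0.00453 by limma), and the insulin receptor Insr fell by 0.76 (SE 0.18, adjusted p = 0.00842 by limma). The call of Igf1r did not hold without bile duct epithelium (0.56, adjusted p = 0.0802) or without the 3 libraries that stand apart (0.82, adjusted p = 0.0575), and that of Insr did not hold without either epithelium (adjusted p = 0.0632 and 0.0672). Without the 3 libraries that stand apart, 1 of the 17 rose and 8 fell.

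Factors that set, keep or remove the methylation of imprinted loci, or read it, formed a list of 15 genes. Of these, 12 were tested, 5 rose, none fell and 7 did not pass, beside 27.6% that rose and 30.0% that fell of all genes tested. The median was 0.33, which was 0.056 without bile duct epithelium and 0.57 without pancreatic duct epithelium. The 5 included Tet3, an enzyme that oxidises methylated DNA (0.52, adjusted p = 0.0362 by limma), named after its values were seen, a call lost without bile duct epithelium (adjusted p = 0.395) and without 4 of the 6 organoids in turn (adjusted p = 0.0508 to 0.0694). With FPKM as deposited 7 rose, Ctcf among them. Trim28, the corepressor recruited to imprinted loci, rose by 1.63 (SE 0.081, adjusted p = 4.1e-06), Dnmt1, the maintenance DNA methyltransferase, by 1.99 (SE 0.29, adjusted p = 0.000924), and Uhrf1, which brings it to replicated DNA, by 3.33 (SE 0.23, adjusted p = 2.3e-05, all by limma). Ctcf, which insulates H19 from Igf2, gave 0.091 (SE 0.11, adjusted p = 0.491 by limma). In the 3 libraries that stand apart Dnmt1 was at 47.6 to 48.7 FPKM against 22.9 to 39.3 in the other organoids, and Uhrf1 at 56.6 to 67.0 against 30.7 to 51.0. Uhrf1 and Dnmt1 are also high in dividing cells, and the proliferation markers rose in 8 of 8. Their part was not tested, and methylation was not measured.

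Genes around H19 and Cdkn1c, whose start sites lie 883 kb apart on chromosome 7, did not move as a block. Of 25 named genes with at least 1 FPKM from 250 kb beyond H19 to 250 kb beyond Cdkn1c, 7 lay at least 2-fold lower in both organs and 5 at least 2-fold higher, where 19.6% and 9.42% of 14049 such genes of the whole table did. These counts are a description and say nothing particular to the region. The lower ones included H19, Igf2, Ins2 (-4.35 in bile duct and -6.50 in pancreatic duct) and Lsp1, a leukocyte gene (-4.51 and -4.50). Mrpl23, a mitochondrial ribosomal protein gene between Lsp1 and H19, differed by 0.055 and 0.0052. Syt8, a synaptotagmin gene on the far side of Lsp1, was higher (1.13 and 4.32), as was Tnni2, a troponin gene (0.57 and 2.41). Beside Cdkn1c, Phlda2 at a distance of 40495 bases was higher (1.59 and 2.31). Cars, a tRNA synthetase gene 96180 bases away, was higher too (1.55 and 1.50), whereas Tnfrsf26 beyond it was lower (-1.36 and -1.27).

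**Figure D4:**
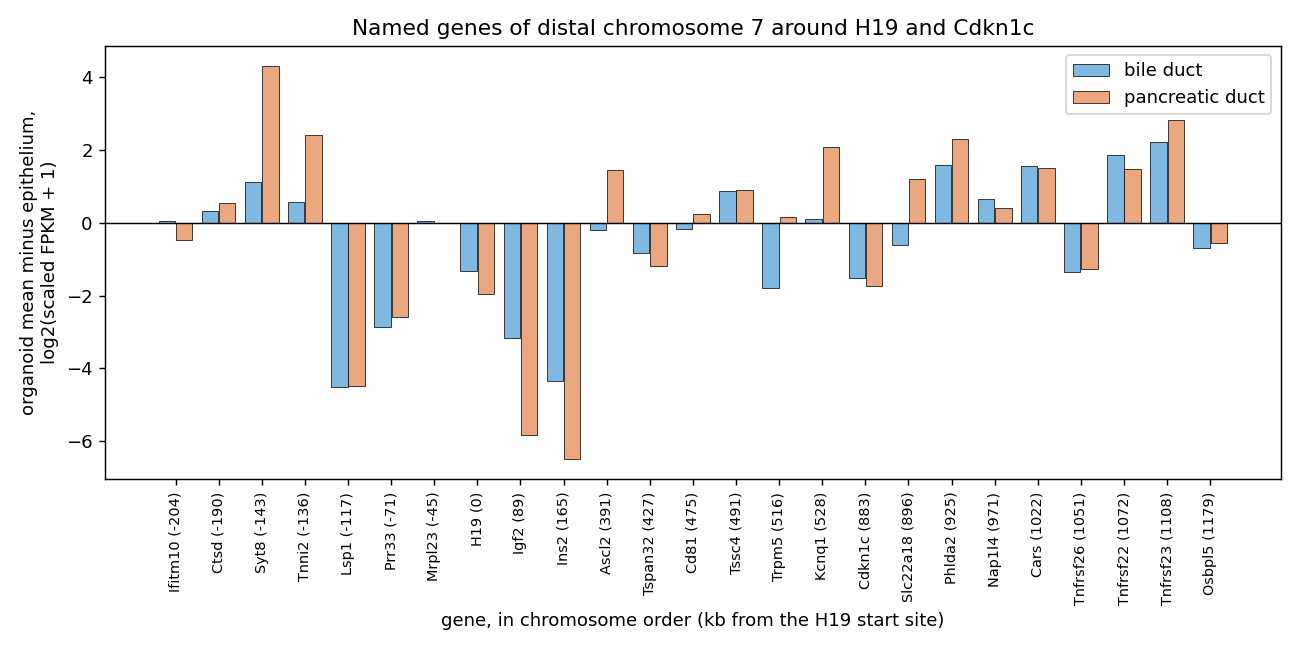
Organoid mean minus epithelium in log2(scaled FPKM + 1) for 25 genes in chromosome order, with kb from the H19 start site in brackets. Bars below and above 0 occur on both sides. Lsp1, Igf2 and Ins2 lie below 0 and Syt8 and Tnni2 above it near H19, and beyond Cdkn1c Phlda2, Cars, Tnfrsf22 and Tnfrsf23 lie above 0 and Tnfrsf26 below.

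For Igf2, Peg3 and Grb10, whose log2 levels spanned at least 2, the most similar profiles among 14193 other genes were sought by root mean square difference over the 8 libraries, each profile centred on its mean. For Igf2 they were Ins1 (0.27) and Cd79a (0.30), a B cell receptor gene. For Grb10 they were Hspa12b (0.19), a heat shock protein family gene of endothelium, and Rbpms2 (0.20), an RNA-binding protein gene of smooth muscle. For Peg3 they were Lifr (0.45), the receptor for leukaemia inhibitory factor, and Agmo (0.45), an alkylglycerol monooxygenase gene. Agmo was at 0.294 to 0.813 FPKM in 5 organoids and at 4.66 in pancreatic duct organoid 3, the library in which Peg3 was also high. These likenesses are descriptions and share the same libraries.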

How the data were processed

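Polyadenylated RNA of 8 libraries was sequenced, per the labels. The deposited values are FPKM, per gene and library, read as such from the values; Bowtie2 2.2.3, HISAT2 2.1.0, TopHat2 and HTSeq 0.6.0 are named in the submitters' processing notes without a role. Each FPKM multiplied by exon length in GENCODE M21 gave whole reads within 0.05 for 28310 genes (90.7%) in all 8 libraries, against 10% by chance for a single value; lengths of H19 and Igf2r were refitted. The members and lists were chosen with earlier results of these data known, and Zim1 was moved between lists after its values were seen. FPKM were scaled by a trimmed mean of log ratios (30% and 5% trimmed), and log2(scaled FPKM + 1) was tested with limma 3.58.1 in R 4.3.3 with an intensity trend. Filters were 1 FPKM in at least 3 organoids, or in at least 2 of 8 libraries. On simulated data with 200 of 14919 genes changed, the test of organoid against epithelium recovered 50.0% of 2-fold changes and 78.9% of 4-fold changes, with 9 false calls among 135. Simulations drew spread independently for each gene with a capped SD, so their results may be too favourable for the real data. Named genes were the 10 members, the 4 highest of each list, and the 2 most similar profiles; exceptions are stated. Alternatives were another scaling, pseudocount, filter and test, a replicate block and leaving out libraries. No count test on the recovered reads was run. Per-sample columns were all used. Python 3.11.15 with pandas 2.3.3 and scipy 1.17.1 gave ratios with 95% exact binomial intervals, which cover counting error only.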

Additional observations from a re-analysis of the deposited data

How the results depend on the processing

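In organoids against epithelia, Igf2r, Cdkn1c and Mest kept direction and call under the alternatives that tested them, and Peg3 its direction. H19, Igf2 and Grb10 also did, but they pass the filter only through the epithelia, so their fall was fixed once they were tested. Leaving out an epithelium left 5 of the 10 genes tested (Igf2r, Peg3, Plagl1, Mest and Cdkn1c), and a filter at 10 FPKM left 2 (Igf2r and Grb10). A pseudocount of 0.1 in place of 1 kept those calls and gave larger changes, -6.42 for Igf2, -5.51 for Grb10, -4.09 for H19, -2.41 for Peg3, -2.34 for Cdkn1c and -2.20 for Mest, with a median over the 8 genes tested of -2.38 against -1.64. FPKM as deposited moved the median of all genes up by 0.23 in that comparison, and the split became 5497 higher and 3659 lower against 4114 and 4481. A filter at 10 FPKM gave 4431 calls there, and 838, 2865 and 3137 genes at least 2-fold apart between epithelia, in bile duct and in pancreatic duct, because fewer genes were compared. Leaving out 1 library gave 3977 to 8895 calls, lowest without pancreatic duct epithelium and 4431 without bile duct epithelium, which leave 1 epithelium that is assumed to vary like the organoids. Between organoids, leaving out 1 library gave 0 to 11 calls, with 11 without pancreatic duct organoid 3, none of them one of the 10 genes.

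Signs turned only in differences that did not pass or had no test, such as Plagl1 in bile duct (-0.039 without bile duct organoid 1). Between organoids, leaving out 1 library in turn gave -0.082 to 0.029 for Igf2r and -0.55 to 0.28 for Plagl1. A term for the 3 libraries that stand apart, an alternative chosen after seeing the data, gave 0.0045 and 0.13. Between organoids and epithelia, leaving out 1 library gave -0.28 to 0.0079 for Mcts2, -0.20 to 0.22 for Cd81, -0.56 to 0.21 for Igfbp3 and -0.0083 to 0.15 for Ctcf. The deposited scaling gave 0.13 for Mcts2 and 0.13 for Igfbp3, and median-of-ratios scaling -0.0055 for Cd81. Igfbp3 was 0.51 without the 3 libraries that stand apart. The cause was not tested.

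Same-numbered organoids shared only a number, with correlations of -0.11, -0.44 and 0.48 between their deviations. With the replicate number as a block, 0 genes were called between organoids and 284 had an unadjusted p below 0.05. Depth limits Meg3, Dlk1 and H19, which rest on few reads in the organoids. The read ratios that leave out an organoid were chosen after seeing the data.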
